A study of Mus musculus with 6 samples.

Results

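The genes described here are 47 genes of motile cilia and of the ciliated cells that carry them, a list given by gene name, with no measured value in its rule. All 47 were found among the 21900 genes of the table, 44 by symbol and 3 by gene identifier, namely Dnaic1, Dnaic2 and Ccdc114, which are listed as Dnai1, Dnai2 and Odad1. RNA was measured by sequencing in whole lungs of mice fed a high fat diet for 10 weeks. There were 6 libraries, 3 labelled wild type and 3 labelled Cyp1b1 KO (knockout), and each label held 2 females and 1 male. All groups shared the diet, no group on another diet was analysed here, and the labels give no age, strain, allele or design of the knockout. Replicate numbers only name the libraries, and replicate 3 is the male under both labels. Levels are in CPM, read counts scaled to the same total of gene-assigned reads in each library, and rest on 20.2 to 27.6 M assigned reads per library (M, mega). The level worth 3 reads was 0.109 to 0.148 CPM, and every member lay above 2.4 CPM in every library. Per-library values are given in the order labelled wild type 1, 2 and 3, then labelled knockout 1, 2 and 3. Cyp1b1, the cytochrome P450 gene named as the target, was at 12.5, 19.04 and 18.5 CPM under the wild type label and at 51.2, 56.1 and 48.4 CPM under the knockout label. The targeted gene was thus higher in every library labelled knockout (log2 difference 1.63 ± 0.18 SE, adjusted p = 0.0588), which goes against the label, so directions are stated between labels only.

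Motile cilia line the conducting airways and beat together to carry mucus out of the lung. Each is built on an axoneme, a ring of doublet microtubules around a central pair, bent by rows of outer and inner dynein arms and tuned by radial spokes, the nexin link and the central apparatus. The transcription factor FOXJ1 and the RFX factors, which bind a promoter element called the X-box, switch on much of this programme in ciliated cells. In a whole lung the RNA of ciliated cells is a small part of the sample, so fewer ciliated cells and less RNA per ciliated cell cannot be told apart in any value below.

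RefSeq promoter windows (build GRCm38.p6, from 250 bases before to 50 bases after the gene start) were matched for 41 of the 47 genes (no entry: Rsph1, Rsph4a, Foxj1, Tppp3, Dnaaf1 and Dnah3) and searched on both strands for 3 motifs. The X-box half-site GTTGCC, or GGCAAC on the other strand, lay in 22 of 41 member windows (53.7%) against 14.1% of the windows of all 27025 genes with an entry. The longer form with both arms, GTTNCC followed by any 3 bases and GNAAC, lay in 4 of 41 members against 0.936% of all genes, and it contains the half-site where its N letters allow. The forkhead motif GTAAACA lay in 3 of 41 members, Ak7, Cfap43 and Mlf1, against 4.05% of all genes. These matches describe the letters of the windows only. The 3 stretches that follow show the longer form in capitals upstream of the gene start in Cfap44, a component of a tether between axoneme and dynein, Hydin, a giant protein of the central apparatus, and Spag16, another central apparatus protein. They are on the plus strand at chr16:44394764-44394793, chr8:110266916-110266976 and chr1:69826827-69826920, and the Hydin stretch overlaps an exon of the gene Gm26832.
Cfap44: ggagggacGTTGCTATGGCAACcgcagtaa
Hydin: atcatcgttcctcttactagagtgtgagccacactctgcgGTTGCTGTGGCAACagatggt
Spag16: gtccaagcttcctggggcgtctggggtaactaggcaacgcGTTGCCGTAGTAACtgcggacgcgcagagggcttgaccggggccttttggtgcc
Of the members that fell in males (below), 3 had a window, Lrrc23, Ccdc113 and Tekt2, and their half-sites are shown in capitals. Lrrc23 and Tekt2 are read from the minus strand, at chr6:124779839-124779924 and chr6:124779728-124779806, and at chr4:126325739-126325824 and chr4:126325689-126325750. Ccdc113 is on the plus strand at chr8:95534082-95534099.
Lrrc23, distal: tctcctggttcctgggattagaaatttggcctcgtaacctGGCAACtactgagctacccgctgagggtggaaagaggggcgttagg
Lrrc23, proximal: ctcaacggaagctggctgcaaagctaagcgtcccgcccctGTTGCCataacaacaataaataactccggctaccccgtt
Tekt2, distal: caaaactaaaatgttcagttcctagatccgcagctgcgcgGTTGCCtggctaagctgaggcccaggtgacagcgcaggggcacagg
Tekt2, proximal: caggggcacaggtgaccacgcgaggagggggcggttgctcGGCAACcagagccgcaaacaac
Ccdc113: ttcagttgtctaGGCAAC
The half-sites began at positions -157 and -39 in Lrrc23, -96 and -22 in Tekt2 and -6 in Ccdc113, counted from the RefSeq gene start. Another window of Tekt2 places its sites at -138 and -64. The Ccdc113 stretch overlaps an exon of Ccdc113 itself in GENCODE, which starts that gene further upstream.

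Levels between genes were compared only per kilobase of the longest annotated transcript. Sec14l3, a lipid-binding protein abundant in ciliated cells, was highest with a mean over the 6 libraries of 479 CPM per kilobase. Tppp3, a tubulin-binding protein used as a ciliated cell marker, followed with 270.3 and Foxj1 with 64.2 CPM per kilobase. The next were Dynlrb2, a dynein light chain, at 44.4 and Tmem212, a membrane protein of ciliated cells, at 33.9 CPM per kilobase. The dynein heavy chains were among the lowest on this scale, with Dnah7a at 0.637, Dnah7b at 1.03 and Dnah2 at 1.69 CPM per kilobase. Dnah7a and Dnah7b are near-identical copies, as are Spag6l and Spag6 in large part, so reads could be split or lost between them. Strand use is not known either, and 13 members have exons that overlap another gene of the CPM table, 12 of them one on the opposite strand. Among these are Ccdc39 with Ttc14, Dnaaf1 with Taf1c, Dnali1 with Gnl2, Spag17 with Wdr3 and Dnah11 with Cdca7l, whose reads cannot be told apart here.

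The first comparison asks whether ciliated cell genes differ between the lungs labelled knockout and those labelled wild type. No member passed the threshold of an adjusted p under 0.05 in limma, against 0.0115% of all genes tested, which is 2 of 17382. The adjusted p of the members lay between 0.775 and 0.999. At an unadjusted p under 0.05 there was 1 member, Spag17, where 5.13% of all genes reached that level, 579 of 17382 being lower. A total of 40 of 47 members were lower under the knockout label, as were 59.9% of all genes, and the median log2 difference was -0.18 against -0.06 for all genes. For 0 of 47 members did the 3 libraries of one label lie outside the range of the other, against 9.52% of all genes, and 5.89% lay below the whole range of the wild type label. Centring each library on its median shifted the median of all genes by 0.10 and left 33 of 47 members below 0, and quantile normalization left 34. Centring shifts every gene alike, so the median difference relative to that of all genes is -0.12 either way, which is no check of it. Under quantile normalization it was -0.11.

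This small difference rested on single libraries. Without labelled wild type 2, the median over the members was -0.02 and 25 of 47 were below 0. Without labelled wild type 1, it was -0.35, 46 of 47 were below 0 and 14 members had an unadjusted p under 0.05. Among the 4 females alone it was -0.12.

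Foxj1, the master regulator of motile ciliogenesis, was at 149.9, 234.8 and 168 CPM under the wild type label and at 169, 192 and 98.01 CPM under the knockout label. Labelled wild type 2 was the highest and the male labelled knockout the lowest, and the labels overlapped. The means were 184 ± 44.8 and 153 ± 48.9 CPM (SD, n = 3), with a log2 difference of -0.30 ± 0.20 (SE, adjusted p = 0.775). Ccno, a cyclin-like protein of centriole amplification, was at 2.43, 5.04 and 3.03 CPM and then at 4.17, 3.34 and 7.84 CPM. It was the member of smallest p among the 7 above 0 (log2 difference 0.46 ± 0.36 SE, adjusted p = 0.778), and its highest library was the male labelled knockout.

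The outer dynein arm showed no called change. Dnah5, a heavy chain of the outer arm, was at 87.3, 178.6 and 81.6 CPM under the wild type label and at 133.6, 119 and 105 CPM under the knockout label. Labelled wild type 2 stood above all other libraries and the other libraries labelled wild type below all others. The means were 116 ± 54.4 and 119 ± 14.5 CPM (SD, n = 3), and the log2 difference of 0.13 ± 0.24 (SE, adjusted p = 0.897) turned to -0.13 without labelled wild type 1. Dnah9, the heavy chain of the distal outer arm, had means of 54.2 ± 23.2 and 47.3 ± 2.48 CPM (SD, n = 3). Dnaic1, an intermediate chain, was at 13.9 ± 6.28 and 12.4 ± 3.54 CPM (SD, n = 3). For both genes the wider spread lay under the wild type label, with labelled wild type 2 on top at 80.9 CPM for Dnah9 and 21.02 CPM for Dnaic1.

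Inner arm and assembly genes were not called either. Dnah12, an inner arm heavy chain, was at 33.2, 70.8 and 34.7 CPM and then at 43.6, 45.2 and 39.9 CPM. Dnah2, another inner arm heavy chain, had a log2 difference of 0.12 ± 0.28 (SE), which became -0.25 without labelled wild type 1. Dnali1, an inner arm light intermediate chain, was at 35.7, 53.1 and 25.6 CPM and then at 35.2, 51.3 and 21.3 CPM, so that the male was the lowest library under either label. Dnaaf1 and Zmynd10 are cytoplasmic factors that assemble dynein arms. Dnaaf1 had means of 16.0 ± 4.30 and 13.2 ± 4.04 CPM and Zmynd10 of 17.3 ± 5.64 and 16.2 ± 6.10 CPM (SD, n = 3). None of the 11 genes of these roles passed the threshold.

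Among spokes, links and the central apparatus, Spag17 came nearest to a difference between labels. This central apparatus protein was at 21.9, 34.1 and 18.96 CPM under the wild type label and at 17.3, 20.3 and 13.4 CPM under the knockout label. Only labelled knockout 2, at 20.3 CPM, lay inside the range of the other label. The log2 difference was -0.51 ± 0.19 (SE, unadjusted p = 0.0282, adjusted p = 0.775), between -0.69 and -0.33 over all alternatives. Hydin was at 56.3 ± 27.9 CPM under the wild type label and 49.2 ± 5.55 CPM under the knockout label (SD, n = 3). Spag6l had means of 27.5 ± 8.70 and 23.3 ± 6.64 CPM and Rsph1, a radial spoke head protein, of 30.1 ± 5.68 and 25.7 ± 10.9 CPM (SD, n = 3). Ccdc39, which with Ccdc40 sets the axonemal repeat length, was at 45.1 ± 18.0 and 32.8 ± 8.67 CPM, and Drc1 of the nexin link at 29.9 ± 11.5 and 25.3 ± 9.01 CPM (SD, n = 3). For each of these genes, Spag17 included, the difference between the label means was smaller than the larger SD of its pair.

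The remaining structural genes and markers did not separate the labels either. Tekt1, a filament protein inside the doublet microtubules, had means of 22.5 ± 6.61 and 19.8 ± 7.21 CPM, and Cfap52, another protein of the doublet lumen, of 17.1 ± 3.58 and 15.1 ± 5.40 CPM (SD, n = 3). Ak7, an adenylate kinase of cilia, had means of 49.0 ± 16.1 and 42.8 ± 10.7 CPM (SD, n = 3). Sec14l3 was at 1293 ± 256 and 1281 ± 100.2 CPM and Cdhr3, a cadherin-related surface protein of ciliated cells, at 63.0 ± 25.9 and 62.5 ± 10.7 CPM (SD, n = 3). Fam183b, a small cilium protein, and Tmem212 had the smallest p below 0 after Spag17, with log2 differences of -0.50 ± 0.25 and -0.40 ± 0.22 (SE, adjusted p = 0.775 for both). In both genes the male labelled knockout was far below the others, at 4.64 CPM for Fam183b and 11.5 CPM for Tmem212.

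**Figure D1:**
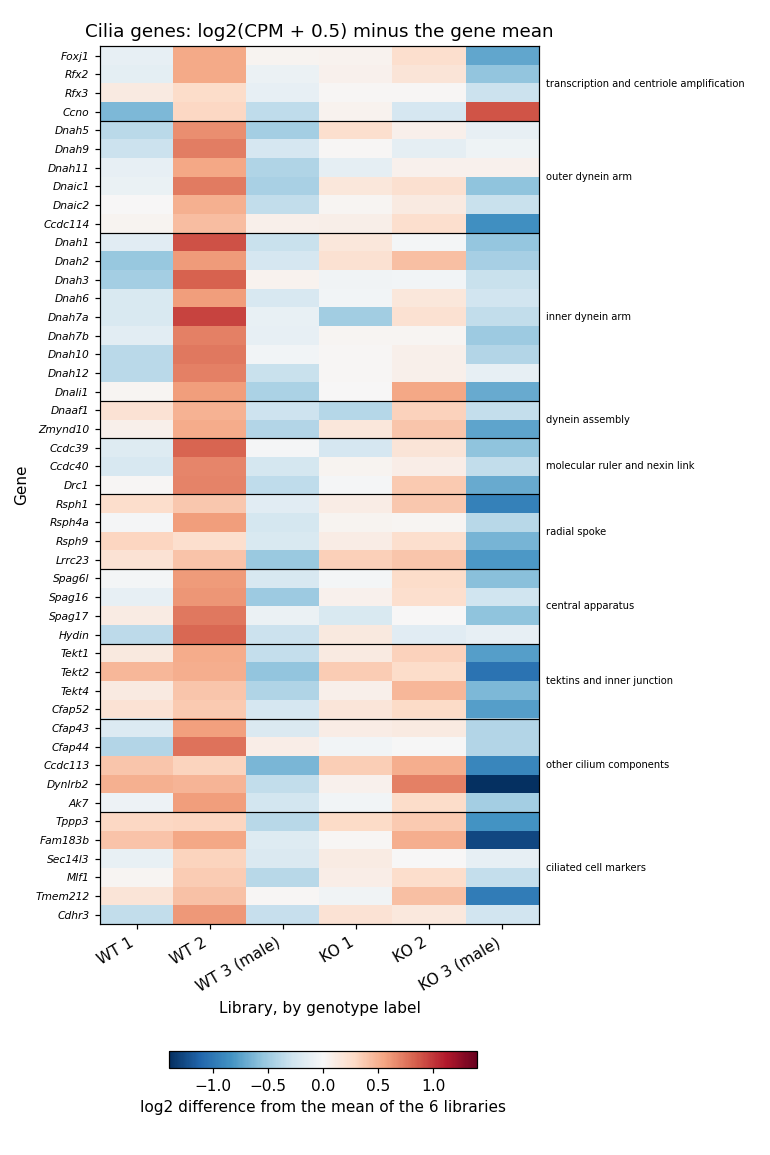
Each row is 1 of the 47 genes, grouped by role, and each column 1 library (WT, labelled wild type; KO, labelled knockout; females unless marked). Colour gives log2(CPM + 0.5) minus the gene's mean over the 6 libraries. Labelled wild type 2 is the highest library for 39 genes and the male labelled knockout the lowest for 32, while Ccno is highest in that male.

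The clearest difference lay between the males and the females. In the same model, 4 of 47 members fell in males and 0 rose, against 0.834% of all genes that passed in either direction and 0.207% that fell. The 4 were Tppp3, Lrrc23, Ccdc113 and Tekt2. Log2 differences, male minus female, were below 0 for 46 of 47 members and for 57.4% of all genes, with a median of -0.52 against -0.05. At an unadjusted p under 0.05 there were 28 members, all lower in males, against 15.3% of all genes at that level in either direction, 1565 of 17382 genes being lower. Both males lay below all 4 females in 27 of 47 members and in 14.7% of all genes. There was 1 male per label, so a difference of sex and any other difference of these 2 lungs from the other 4 cannot be told apart.

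Tppp3 (chr8:105467493-105471526, minus strand) was at 442, 445.7 and 275 CPM under the wild type label and at 434, 465 and 202 CPM under the knockout label. The 4 females lay within 434 to 465 CPM, and the males were far below at 275 and 202 CPM. The female mean was 447 ± 13.2 CPM (SD, n = 4), the ratio of male to female means 0.534, and the log2 difference -0.92 ± 0.13 (SE, adjusted p = 0.0288). Lrrc23 (chr6:124769863-124779727, minus strand), a protein of the radial spokes, was at 42.2, 48.7 and 25.5 CPM and then at 46.3, 48.3 and 20.8 CPM. Again the groups did not overlap, with a female mean of 46.4 ± 2.94 CPM (SD, n = 4). Its log2 difference was -0.99 ± 0.14 (SE, adjusted p = 0.0285).

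Ccdc113 (chr8:95534085-95558890, plus strand), a coiled-coil protein of cilia, was at 19.97, 18.99 and 9.56 CPM and then at 19.3, 21.7 and 7.84 CPM. Each male was below every female, with a log2 difference of -1.16 ± 0.18 (SE, adjusted p = 0.0332). Tekt2 (chr4:126322121-126325688, minus strand), a tektin filament protein, was at 17.5, 18.1 and 8.41 CPM and then at 16.2, 15.05 and 5.85 CPM. The males again lay outside the female range, and the log2 difference was -1.19 ± 0.18 (SE, adjusted p = 0.0342). Dynlrb2 had the most negative log2 difference of the members at -1.30 ± 0.26 (SE) but missed the threshold (adjusted p = 0.0697). Its females were spread from 22.0 to 34.7 CPM and its males were at 16.6 and 7.72 CPM.

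These calls depended on the libraries available. Without any 1 of the 4 females none of the 4 genes passed, with adjusted p between 0.0503 and 0.173. Without either male, the lone remaining male is assumed to vary like the females, so calls in those fits are not counted. The log2 differences of Tppp3, Lrrc23, Ccdc113 and Tekt2 were -1.15, -1.16, -1.33 and -1.34 without the male labelled wild type. Without the male labelled knockout they were -0.69, -0.82, -0.99 and -1.04. All 4 genes kept a log2 difference of -0.69 or lower over all alternatives.

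**Figure D2:**
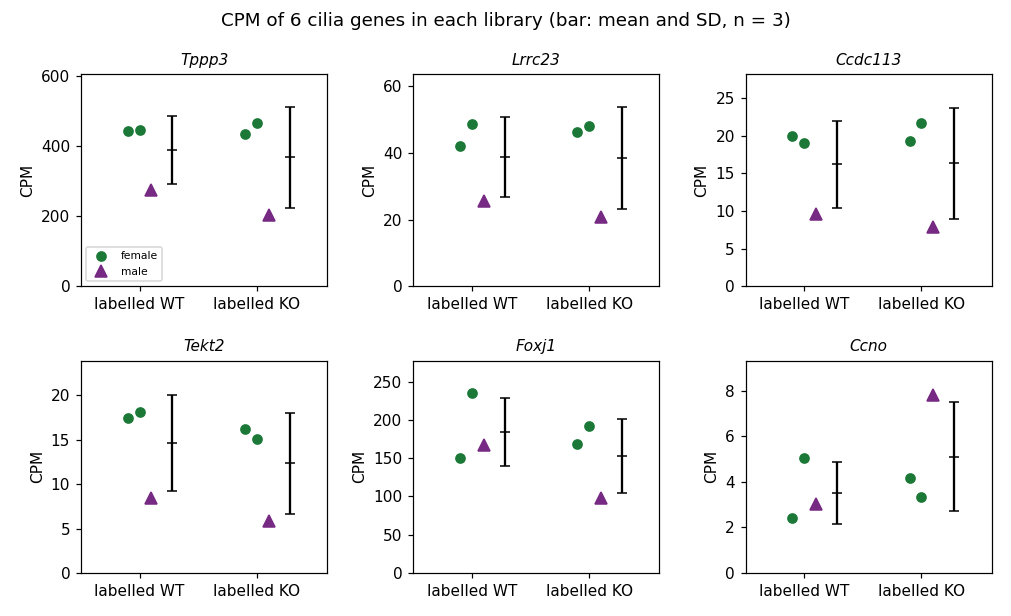
CPM in each library for the 4 genes that fell in males and for Foxj1 and Ccno, by genotype label (circles, females; triangles, males; bars, mean and SD of the 3 libraries of a label). The males of Tppp3, Lrrc23, Ccdc113 and Tekt2 lie below all females under both labels, while Foxj1 and Ccno overlap.

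By role, both males were below all females in 4 of 4 radial spoke genes, 4 of 4 tektins and doublet lumen genes, 4 of 5 other cilium components, 4 of 6 ciliated cell markers, 2 of 3 ruler and nexin link genes, 2 of 4 central apparatus genes, 1 of 2 assembly genes and 1 of 4 genes of transcription and centriole amplification. The share over all genes was 14.7%, and differences between roles were not tested. Rsph1 had a female mean of 32.5 ± 2.90 CPM (SD, n = 4) and males at 23.7 and 13.6 CPM. Tekt1 had a female mean of 24.8 ± 3.30 CPM (SD, n = 4) and males at 15.97 and 11.7 CPM. Cfap52 had a female mean of 18.6 ± 1.13 CPM (SD, n = 4) and males at 13.2 and 8.89 CPM. The adjusted p of these 3 genes were 0.101, 0.0895 and 0.112.

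The dynein arm genes were mixed. Both males were below all females in 3 of 9 inner arm genes (Dnah1, Dnah6 and Dnali1) and in 2 of 6 outer arm genes, the intermediate chains Dnaic1 and Dnaic2. The heavy chains ran from -0.64 for Dnah1 to -0.20 for Dnah3. Dnah5 had a log2 difference of -0.44 ± 0.25, Dnah9 of -0.22 ± 0.26, Dnah12 of -0.32 ± 0.27 and Hydin of -0.31 ± 0.29 (SE), and none passed. Of the shorter dynein genes, Dnali1 was at -0.87 ± 0.21, Dnaic1 at -0.76 ± 0.25 and Dnaic2 at -0.49 ± 0.17 (SE, adjusted p = 0.110, 0.198 and 0.222). Zmynd10 was at -0.86 ± 0.20 and Dnaaf1 at -0.46 ± 0.24 (SE), and Drc1 at -0.79 ± 0.21 beside Ccdc39 at -0.44 ± 0.26 (SE). Spag6l was at -0.60 ± 0.20, Ak7 at -0.54 ± 0.19 and Cdhr3 at -0.45 ± 0.23 (SE). Sec14l3 had males at 1107 and 1179 CPM against a female mean of 1359 ± 169.7 CPM (SD, n = 4), a log2 difference of -0.24 ± 0.17 (SE).

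Foxj1 itself had males at 168 and 98.01 CPM against females from 149.9 to 234.8 CPM, so that the male labelled wild type lay inside the female range. Its log2 difference was -0.52 ± 0.21 (SE, adjusted p = 0.307), and it was -0.16 without the male labelled knockout and -0.87 without the male labelled wild type. Ccno was the 1 member above 0, at 0.39 ± 0.38 (SE, adjusted p = 0.682), and it turned to -0.19 without the male labelled knockout.

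The sex term could also differ between labels, which the interaction term tests (the label difference in males minus that in females). No member passed in limma, against 2.54% of all genes in either direction and 1.84% below 0, and 5 members had an unadjusted p under 0.05, all of them lower, where 17.9% of all genes reached that level, 2142 of 17382 being lower. A total of 28 of 47 members were below 0, as were 60.5% of all genes. The spread in this test comes from the females, since there was 1 male per label. The smallest p below 0 belonged to Tppp3 at -0.46, Tmem212 at -0.89 and Rsph1 at -0.71, with adjusted p of 0.213, 0.223 and 0.229. Above 0 it belonged to Dnah11, an outer arm heavy chain, at 0.72, to Ccno at 1.17 and to Dnah9 at 0.43, with adjusted p of 0.355, 0.376 and 0.693. Dnah11 was at 29.6, 46.9 and 23.9 CPM and then at 29.4, 33.5 and 33.4 CPM. The median over the members was -0.15 and that over all genes -0.13. Centring shifted all genes by 0.23 and the members to 0.08, so the direction of this median depended on the scaling. It depended on single libraries too, with 0.26 (16 of 47 below 0) without labelled wild type 1 and -0.45 (44 of 47 below 0) without labelled wild type 2.

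The level of the members was also read library by library. The median over members of the log2 difference from each gene's own mean was -0.08, 0.58 and -0.25 under the wild type label and 0.05, 0.23 and -0.51 under the knockout label. The medians over all genes on this scale lay between -0.12, in the male labelled knockout, and 0.03. With each library centred on its median, the members were at -0.347 in the male labelled knockout and -0.344 in the male labelled wild type. Labelled wild type 2 was the highest library for 39 of 47 members, against 17.0% of all genes. The male labelled knockout was the lowest for 32 of 47, against 37.5% of all genes. The summed CPM of the members was 3081, 4446 and 2741 under the wild type label and 3456, 3537 and 2549 under the knockout label. The lowest sum was thus in the male labelled knockout, the next lowest in the male labelled wild type and the highest in labelled wild type 2. The pooled SD of the library medians was 0.41 within a label and 0.26 within a sex.

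Genes of other cells moved with these libraries. The 8 secretory (club) cell genes had medians of -1.41, 1.01 and -0.28 and then 0.19, 0.39 and -0.29 on the same scale. Their summed level ran from 18577 to 30624 CPM under the wild type label and from 13969 to 30236 CPM under the knockout label, lowest in the male of each label. Scgb1a1 made up most of that sum. Both males lay below all females in 2 of the 8 genes, against 14.7% of all genes. In labelled wild type 1, 5 of 8 were lowest, against 12.4% of all genes. Muc5b, a gel-forming mucin, was at 80.3, 527 and 244 CPM and then at 268, 279.8 and 222 CPM, and Bpifa1, a secreted airway defence protein, at 32.6, 590.7 and 161 CPM and then at 306, 649 and 539 CPM. Both were lowest in labelled wild type 1 and high in labelled wild type 2. Scgb1a1, the secretoglobin of club cells, was at 23722, 23890 and 14852 CPM and then at 19476, 24282 and 9396 CPM, lowest in the males. The 3 airway basal genes tested had a median of -0.98 in labelled wild type 1 and of 0.58 in labelled wild type 2, and Krt5, a basal cell keratin, was without a read in labelled wild type 1, which allows up to 0.126 CPM. The 4 smooth muscle genes were all highest in labelled wild type 2 (median 0.50), and Chad, the 1 cartilage gene tested, was at 71.07 CPM there and at 30.8 to 48.1 CPM elsewhere. The smooth muscle genes summed to 689 to 1322 CPM under the wild type label and 802 to 1085 CPM under the knockout label.

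The other marker lists covered alveolar, vascular, muscle and blood cells. Medians of the 6 alveolar type 2 genes lay within -0.15 to 0.12, of the 5 alveolar type 1 genes within -0.14 to 0.29 and of the 4 endothelial genes within -0.42 to 0.18. Male minus female differences were below 0 for all 6 alveolar type 2 (median -0.23), 5 alveolar type 1 (-0.24) and 4 smooth muscle genes (-0.52). Both males lay below all females in 4 of 6, 1 of 5 and 1 of 4 of these, against 14.7% of all genes. Above 0 were 3 of 4 cardiac muscle genes and all adipocyte, neutrophil, erythroid and T cell genes. Below 0 were all 3 B cell genes (median -0.60), Chad, 3 of 4 endothelial and 6 of 8 secretory genes. So were 2 of 3 genes in each of the airway basal, neuroendocrine and mesothelial lists. Over all genes 57.4% were below 0. Medians ran from -0.48 to 0.47 for the 3 neuroendocrine genes tested, from -0.42 to 0.49 for the 3 mesothelial genes, from -0.44 to 0.14 for the 4 cardiac muscle genes and from -0.55 to 0.40 for the 3 adipocyte genes. The median of the 3 B cell genes was lowest in the male labelled knockout (-1.39) and highest in the male labelled wild type (0.60). The male labelled knockout was the highest library for 4 of 4 neutrophil genes (median 4.44) and 3 of 3 erythroid genes (median 1.78), and the male labelled wild type for 3 of 3 T cell genes (median 1.38). Neutrophil genes summed to 4264 CPM in the male labelled knockout and to 63.7 to 156 CPM in the other libraries. Of the 3 mesothelial genes, 2 were below 0 in males and 1 was above, at 0.20. Only Upk3b of these passed the threshold in limma (log2 difference -0.88, adjusted p = 0.0211). The part of these cells in the cilia gene differences was not tested.

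**Figure D3:**
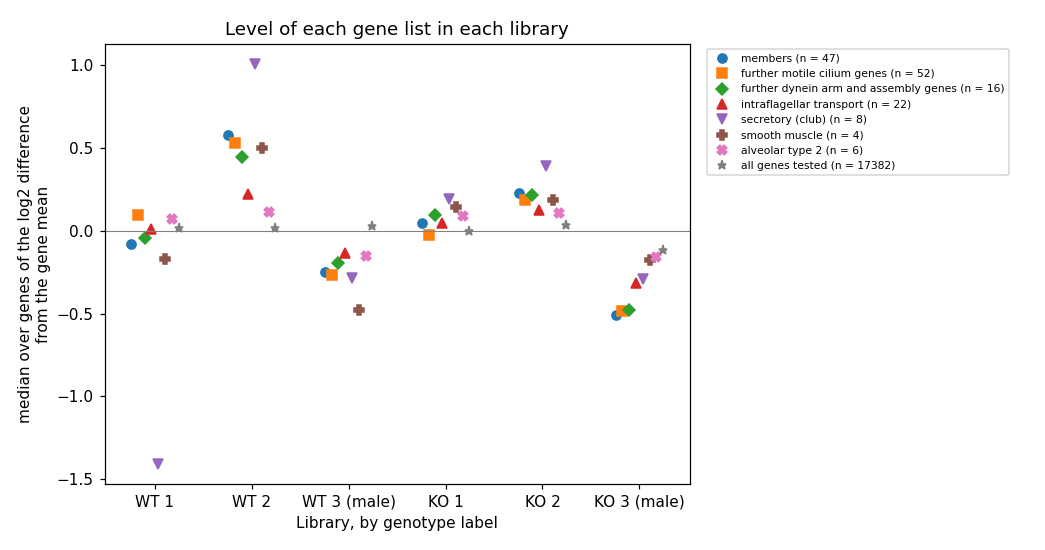
Median over the genes of each list of log2(CPM + 0.5) minus the gene's mean over the 6 libraries, for the 47 members, 3 other cilium lists, 3 marker lists and all genes tested. Without centring of the libraries, the cilium lists are highest in labelled wild type 2 (0.58 for the members) and lowest in the male labelled knockout (-0.51). The secretory genes span -1.41 to 1.01.

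Transcript length moved with both patterns. By the longest annotated transcript, 13 members were under 2000 bp, 18 between 2000 and 5000 bp and 16 over 5000 bp. The median male minus female log2 difference was -0.86, -0.50 and -0.34 in these classes, against -0.11, -0.05 and 0.00 for all genes of the same classes. The longest class is not alike in the 2 sets, with a median length of 12483 bp for members and 6530.5 bp for all genes. All 13 short members had an unadjusted p under 0.05, against 11 of 18 and 4 of 16, and all 4 that fell were short. Among all genes of these classes, 466 of 4673, 837 of 9227 and 259 of 3452 were lower in males at that level, and 11, 15 and 10 fell. For labelled wild type 2 minus labelled wild type 1, the long members differed most, with medians of 0.14, 0.66 and 1.04 against -0.13, 0.00 and 0.10 for all genes. Labelled wild type 2 was the highest library for 6 of 13 short, 17 of 18 middle and 16 of 16 long members. It was so for 579 of 4673, 1667 of 9227 and 692 of 3452 of all genes in these classes.

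Across the 47 members, which share these 6 libraries, Spearman's rho of length with the male minus female difference was 0.77 and with the difference of labelled wild type 2 and 1 it was 0.80. Across the 17352 genes of known length these values were 0.11 and 0.24. The relation was not the same in every pair of libraries. For the other pair of females, labelled knockout 2 minus 1, rho over the members was -0.44 (-0.11 over all genes). For each male minus the females of its label it was 0.42 under the wild type label and 0.74 under the knockout label (-0.03 and 0.20 over all genes). Set against the median of the 200 genes on each side of its length, 46 of 47 members were lower in males, with a median gap of -0.48. With the length trend over all genes removed from each library, the same 4 members passed the threshold. That trend was weaker than the one among the members, and Tppp3 moved only from -0.92 to -0.80. The members' own relation to length was not modelled. All dynein heavy chains were in the longest class, so length and this role cannot be told apart among the members. The part of length in the differences between members was not tested further.

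**Figure D4:**
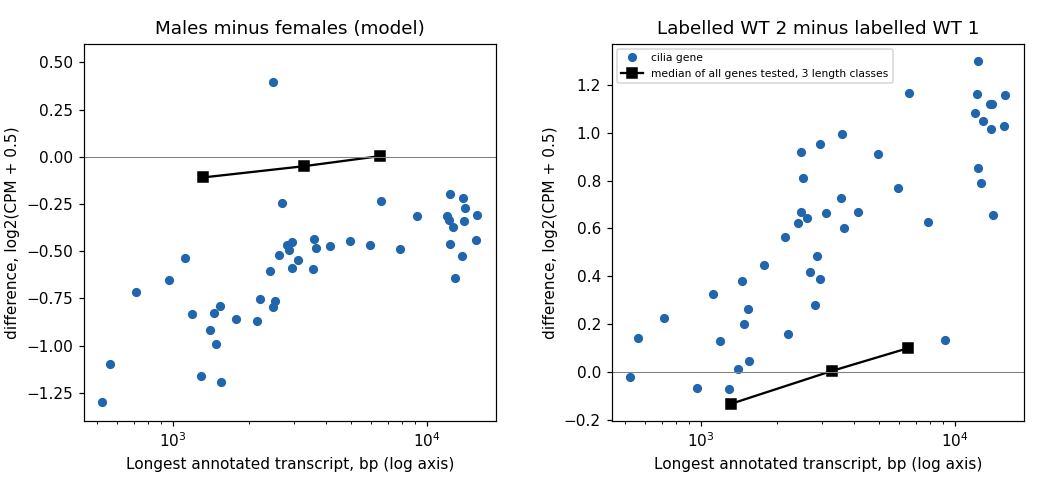
Each circle is 1 of the 47 members, by the length of its longest annotated transcript (log axis), with the model's male minus female difference (left) or the difference between 2 females, labelled wild type 2 minus 1 (right), both of log2(CPM + 0.5). Black squares are medians of all genes in 3 length classes. Short members lie lowest in males (median -0.86), and long members differ most between the females (median 1.04).

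The other genes of the cilium programme were read from 4 further lists. For the genotype label none of their genes passed, against 0.0115% of all genes. In the list of 52 further motile cilium genes, 43 were below 0 under the knockout label (median -0.22), against 59.9% of all genes (median -0.06). Fank1, an ankyrin-repeat protein, had the smallest p, at 9.84, 13.1 and 6.40 CPM under the wild type label and 3.63, 3.99 and 1.87 CPM under the knockout label. Its labels did not overlap, and the log2 difference was -1.49 ± 0.23 (SE, adjusted p = 0.282). Cfap45 followed at -0.51 ± 0.18, and above 0 the smallest p belonged to Dydc2 at 0.41 ± 0.33 and Rsph3a at 0.08 ± 0.13 (SE, adjusted p from 0.775 to 0.871).

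Of the 10 tested genes that specify multiciliated cells, 8 were below 0 under the knockout label (median -0.16), led by Ccdc78, a protein of the platforms where centrioles are multiplied, at -0.64 ± 0.21 and Myb, a transcription factor, at -0.41 ± 0.16 (SE, adjusted p = 0.775 for both). Foxn4 and Gmnc were above 0 at 0.23 and 0.08. Mcidas and Cdc20b were below the minimum level and were not tested. Of the 16 further dynein arm and assembly genes, 15 were below 0 (median -0.16), led by Dnaaf3 at -0.40 and Dnaaf2 at -0.43, with Ccdc103 alone above at 0.38. Of the 22 genes of intraflagellar transport, the traffic that builds cilia, 14 were below 0 (median -0.07), led by Ift20 at -0.28 and Ift80 at -0.26. Dync2li1 at 0.31 and Ift74 at 0.12 led those above 0. Over all genes 59.9% were below 0 (median -0.06), and the transport genes were near that.

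In the comparison of males and females, 2 of the 52 further motile cilium genes fell and 0 rose, against 0.834% of all genes called and 0.207% that fell. Drc3, a subunit of the nexin link complex, was at 32.6, 40.1 and 21.05 CPM and then at 35.9, 32.7 and 16.2 CPM, a log2 difference of -0.91 ± 0.15 (SE, adjusted p = 0.0462). Nme9, a thioredoxin-domain protein, was at 25.2, 29.1 and 13.4 CPM and then at 22.4, 21.8 and 12.4 CPM, a log2 difference of -0.90 ± 0.16 (SE, adjusted p = 0.0489). In both genes the males lay below all females. All 52 further motile cilium genes were below 0 (median -0.58), as were 15 of 16 dynein and assembly genes (median -0.49) and 21 of 22 transport genes (median -0.34). Over all genes 57.4% were below 0 (median -0.05). The 10 specification genes were split, with 5 below 0 and 5 above (median -0.07). No gene of these last 3 lists passed the threshold, and differences between the lists were not tested.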

How the data were processed

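The deposited table holds CPM values per gene for the 6 libraries, with 0.0001 that the authors added to every value. Per the submitters' processing notes the processing involved TopHat2, Partek and build mm10. Tool versions, annotation, filters and use of strand were not given in the sources used here. Of the values worth up to 100 reads, 82.2% to 83.4% per library were whole multiples of 1 read within 0.05, which did not recover whole reads for nearly all values, and count models were therefore not applied. Floors cover counting error only.

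limma 3.58.1 (R 4.3.3, variance trend) was run on log2(CPM + 0.5), with additive terms for label and sex and with their interaction in a separate fit, for 17382 genes with a mean of at least 0.5 CPM. Tests were two-sided, adjusted by Benjamini-Hochberg over all genes tested, with a threshold of 0.05. The fit was tested on simulated data. Fold changes on this scale understate changes of low genes. Lengths and positions come from GENCODE M21 (21846 of 21900 genes matched, 99.8%). Tables and plots used Python 3.11.15, pandas 2.3.3, numpy 2.4.6, scipy 1.17.1 and matplotlib 3.10.9.

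The labels do not say in words that the libraries are separate animals, so each p-value measures only how far these libraries spread, which may be technical. The members, the 4 other cilium lists and the 15 marker lists were chosen with earlier results of these data known. The motifs, the length classes and the removal of the length trend were chosen after seeing the data. Named genes are all members past a threshold, the 3 of smallest p per direction and contrast, lead members of each role, and, from each other cilium list, those past the threshold and the 2 of smallest p per direction for the genotype label. Marker genes named, the motif genes, and the overlap examples were chosen after their values were seen. Alternatives were pseudocounts of 0.1 and 1, no filter or a filter at 1 CPM, library centring, quantile normalization, robust moderation, no sex term, females alone, each library left out and the length trend removed.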

Additional observations from a re-analysis of the deposited data

How the results depend on the processing

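Leaving out each library in turn gave 0 to 10 members past the threshold between males and females (4 with all libraries) and 0 to 1 in the interaction, where Foxj1 passed without labelled wild type 2 (-1.03, adjusted p = 0.0380); no member passed for the genotype label in any setting. Between males and females, no member passed in any fit that left out 1 of the 4 females. Counts above 0 came only from leaving out a male. In those fits the 1 remaining male is assumed to vary like the females, so their calls are not counted. Settings that kept all libraries gave 4 to 5 members between males and females, with Dynlrb2 added under centring and quantile normalization. Without labelled wild type 1, Dnah5 and Dnah2 turned to -0.13 and -0.25 for the genotype label, and their other one-library-out values reached 0.46 and 0.39. Without labelled wild type 2 the interaction of Dnah9 turned to -0.082 (up to 0.94 without labelled wild type 1), and without the male labelled knockout the sex difference of Ccno turned to -0.19 (up to 0.98 without the male labelled wild type). The cause was not tested. Over all genes, the calls ran from 1 to 7 for the genotype label (2 in the reported fit). Between males and females they ran from 21 to 205 while both males were kept (145 in the reported fit). In the interaction they ran from 0, without a filter, to 661, with centring (441 in the reported fit). The interaction could not be fitted without either male and was not run so. No paired analysis was possible because the labels carry no replicate numbers, and the numbers used in the text were given in accession order. Precision is limited by the number of libraries, with 1 male per label, and by the depth of 20.2 to 27.6 M reads.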
